A study of Mus musculus with 23 samples.

Results

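The neurotrophins *Bdnf* and *Ntf3* and their receptors *Ntrk2*, *Ntrk3*, *Ngfr* and *Sort1* were followed through every probe that the array annotation gives to these 6 genes. Every probe with one of these gene symbols was taken, whatever its signal, which came to 15 probes of 25697. These were 3 probes of *Bdnf*, 3 of *Ntrk2*, 4 of *Ntrk3*, 1 of *Ngfr* and 4 of *Sort1*. No probe carried the symbol *Ntf3*, so that 5 of the 6 genes had values and none are given here for the ligand of TrkC. RNA came from the dissected cerebellum, hippocampus and cortex of *Bhlhe40* KO and WT mice, and each RNA sample was hybridized to 1 Illumina mouse Ref8 v2 BeadChip. The KO mice lack the transcription factor Bhlhe40 in every cell and were backcrossed into C57BL/6, the strain given for both genotypes. All animals were untreated males of 3 to 5 months that had been fasted overnight. There were 4 KO and 3 WT arrays of cerebellum, 4 KO and 4 WT arrays of hippocampus, and 4 KO and 4 WT arrays of cortex, from 4 KO and 4 WT mice that each gave their tissues to several groups. In the GRCm38.p6 assembly *Bdnf* lies at chr2:109674700-109727043, *Ntrk2* at chr13:58806472-59133970, *Ntrk3* at chr7:78179986-78581034, *Ngfr* at chr11:95568818-95587698 and *Sort1* at chr3:108283974-108361519.

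Neurotrophins are secreted growth factors made as longer precursors. The mature proteins act through Trk receptor tyrosine kinases to support survival, dendrite growth and synaptic plasticity, and in the adult brain BDNF and its receptor TrkB are best known for long-term potentiation in the hippocampus. The precursors act through the p75 neurotrophin receptor together with sortilin, a sorting receptor of the Vps10p family, and this pair is known for promoting cell death and synaptic depression. *Ntrk2* encodes TrkB, *Ntrk3* encodes TrkC, the receptor of NT-3, *Ngfr* encodes p75 and *Sort1* encodes sortilin. Both Trk genes make full-length receptors and truncated receptors without a kinase domain.

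Start sites of 4 of the 6 genes were represented among the promoter windows of RefSeq (build GRCm38.p6), each running from 250 bases before to 50 bases after a start. There were 7 windows for *Bdnf*, which is transcribed from many alternative first exons, 2 for *Ntf3* and 1 each for *Ntrk2* and *Ngfr*. The *Ngfr* window is shown because *Ngfr* was the only gene with a window whose transcript differed between KO and WT mice. The *Bdnf* window is shown because it was the only one of the 11 to hold the half-site of the CRE, the element bound by CREB, through which activity is known to induce *Bdnf*. Both are written on the strand of the gene. Capitals mark the GC box GGGCGG or its reverse complement CCGCCC in *Ngfr*, and the CRE half-site TGACG or its reverse complement CGTCA in *Bdnf*.
Ngfr, chr11:95587649-95587948, minus strand: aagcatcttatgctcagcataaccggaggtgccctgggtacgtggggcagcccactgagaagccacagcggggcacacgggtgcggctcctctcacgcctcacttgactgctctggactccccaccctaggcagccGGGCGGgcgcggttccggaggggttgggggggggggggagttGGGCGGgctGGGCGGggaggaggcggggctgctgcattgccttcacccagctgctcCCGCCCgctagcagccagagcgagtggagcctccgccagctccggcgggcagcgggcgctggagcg
Bdnf, chr2:109692186-109692485, plus strand: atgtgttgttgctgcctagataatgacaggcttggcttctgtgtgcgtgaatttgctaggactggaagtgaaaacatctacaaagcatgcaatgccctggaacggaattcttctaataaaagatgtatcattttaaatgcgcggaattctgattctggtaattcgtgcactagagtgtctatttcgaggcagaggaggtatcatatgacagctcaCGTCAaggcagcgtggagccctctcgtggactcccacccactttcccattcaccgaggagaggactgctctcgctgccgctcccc
The GC box occurred 4 times in the *Ngfr* window and at least once in 35.7% of all 32851 windows, and the CRE half-site occurred in 20.8% of all windows. The E-box CACGTG, the sequence that Bhlhe40 is known to bind, was searched on both strands and occurred in 7.15% of all windows. Among the 11 windows it was found in 1, that of *Ntf3* at chr6:126166695-126166994. These are matches of letters and were not tested as binding sites.

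The KO genotype was seen in the *Bhlhe40* probe itself, which read 7.94 to 8.50 in all KO arrays and 11.67 to 12.34 in all WT arrays on the normalized log2 scale used throughout. On this scale the log2 signal of each array was centred and scaled over all probes, without background subtraction. A difference of 1 is about a doubling of that signal, exact only for an array of average SD. The probe was still called detected in KO arrays, and which part of the transcript it reads is not given in the sources used here. Cerebellar markers were highest in cerebellum for 6 of 6 granule cell genes and 2 of 2 Purkinje cell genes, while 3 of 4 hippocampal and 4 of 6 cortical neuron markers were highest in their own tissue. Markers of the choroid plexus, which lies next to the dissected tissue, differed between genotypes. In hippocampus 8 of 8 were higher in KO mice by adjusted p in limma, with a summed signal of 27528 to 57350 in KO arrays and 2547 to 48186 in WT arrays. In cerebellum 7 of 8 were higher, with sums of 37010 to 57432 in KO arrays and 19297 to 32151 in WT arrays. Each of the 8 was detected on at least 1 array of each of these 4 groups. In cortex 0 of 4 tested markers passed, with sums of 1756 to 5395 in KO arrays, where 4 of the 8 were undetected throughout, and 1812 to 11968 in WT arrays, where 1 was.

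The array signal of *Ntrk3*, which encodes TrkC, was lower in KO hippocampus on 3 of 4 probes and in KO cerebellum on 1 probe, that of *Ngfr*, which encodes p75, was higher in KO cerebellum, and no neurotrophin or receptor probe passed the test in cortex. In each tissue, KO and WT arrays were compared with limma, and a probe passed at an adjusted p under 0.05, where p was adjusted by the Benjamini and Hochberg procedure across every probe tested there. In hippocampus 3 of 15 probes were lower and 0 were higher in KO mice, against 11.3% of all 14369 probes called (6.59% higher and 4.72% lower). In cerebellum 1 of 14 tested probes was higher and 1 was lower, against a background of 33.8% called (18.5% higher and 15.3% lower). In cortex 0 of 15 passed, where only 0.191% of all probes did, and on no probe were the KO and WT arrays apart without overlap, against 4.17% of all probes. The median difference over the probes was -0.08 in cerebellum, -0.05 in hippocampus and -0.01 in cortex, against medians of 0.01, 0.00 and -0.01 over all probes tested. The share of members called in cerebellum was below the share of all probes, and in hippocampus it rested on *Ntrk3* alone.

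**Figure D1:**
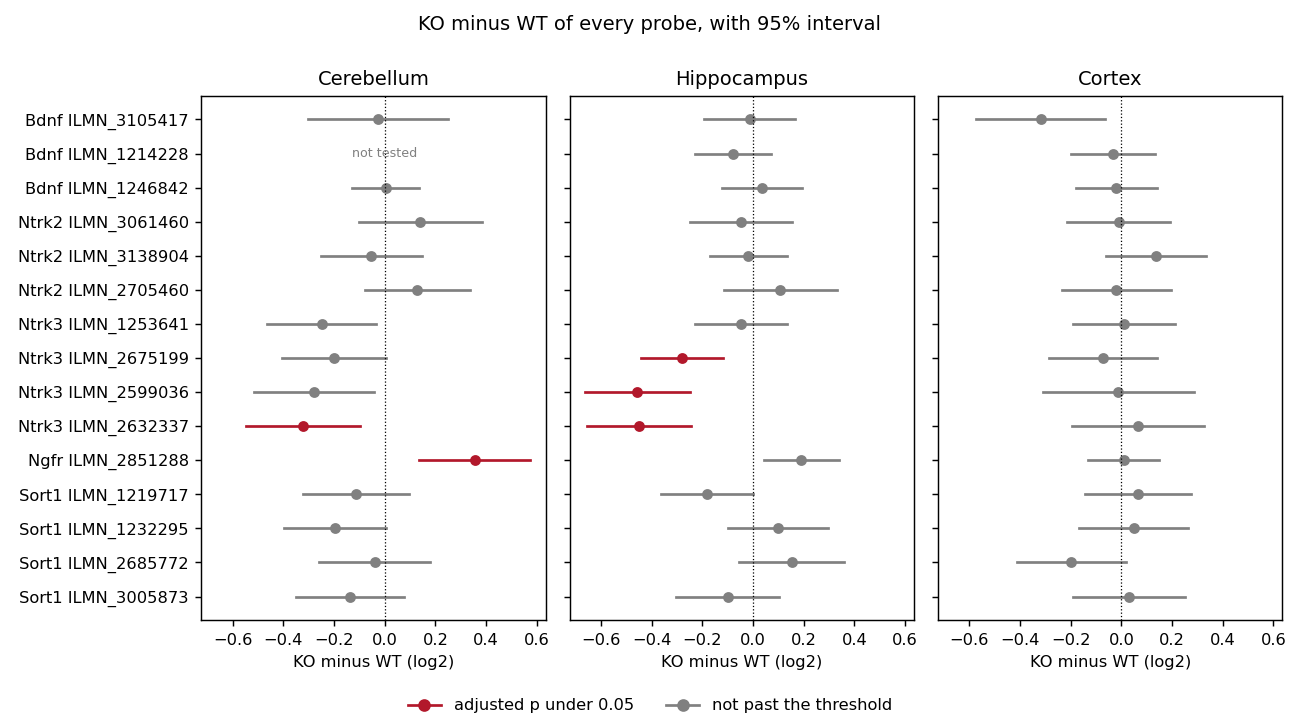
KO minus WT difference in normalized log2 signal (points) with the 95% interval (lines) for each of the 15 probes in cerebellum, hippocampus and cortex. Red marks an adjusted p under 0.05, which was reached by 3 *Ntrk3* probes in hippocampus and by 1 *Ntrk3* probe and the *Ngfr* probe in cerebellum, while every interval in cortex is grey.

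*Ntrk3* encodes TrkC and was read by 4 probes, 2 designed against the transcript NM_182809 and 2 against NM_008746. In hippocampus ILMN_2599036 read 9.06, 8.84, 8.94 and 9.06 in KO arrays, against 9.51, 9.38, 9.24 and 9.60 in WT arrays. The 2 groups did not overlap, as was the case for 16.4% of all probes in this tissue, and the KO mean was lower by a log2 difference of -0.46 (SE 0.10, adjusted p = 0.0101 by limma), or 1.37-fold. ILMN_2632337, against the same transcript, read 9.12, 9.02, 9.07 and 8.97 in KO arrays and 9.76, 9.43, 9.43 and 9.37 in WT arrays. Again all KO arrays lay below all WT arrays (difference -0.45, SE 0.10, adjusted p = 0.0102 by limma).

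Of the *Ntrk3* probes of NM_008746, 1 passed in hippocampus. ILMN_2675199 read 10.52, 10.71, 10.60 and 10.41 in KO arrays and 10.83, 10.88, 10.87 and 10.79 in WT arrays, a difference of -0.28 without overlap (SE 0.08, adjusted p = 0.0272 by limma). This call was lost when any single array other than KO replicate 2 was left out, with adjusted p = 0.0547 to 0.0750, whereas the calls of both NM_182809 probes held with each of the 8 arrays left out. ILMN_1253641 read 10.30, 10.44, 10.10 and 10.18 in KO arrays and 10.26, 10.24, 10.44 and 10.27 in WT arrays. Its groups overlapped throughout, and the difference of -0.05 had a 95% interval of -0.23 to 0.13. The KO effects of these 2 probes differed by 0.23, with an exact permutation p of 0.0571 and an adjusted p of 0.495. They were not shown to differ, although a single pair could not have passed this adjustment at any separation. Set against ILMN_2632337 array by array, ILMN_1253641 differed in its KO effect by 0.40, with an exact permutation p of 0.0286, the smallest this design allows, which became 0.495 after adjustment over the 52 probe pairs compared in all tissues.

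In cerebellum all 4 *Ntrk3* probes read lower in KO mice on average, and 1 passed the test. ILMN_2632337 read 9.10, 9.17, 8.98 and 9.08 in KO arrays and 9.55, 9.31 and 9.34 in WT arrays, which did not overlap, like the arrays of 38.2% of all probes there (difference -0.32, SE 0.11, adjusted p = 0.0262 by limma). The other probes differed by -0.20 to -0.28 with overlapping groups and adjusted p of 0.0644 to 0.122. The call on ILMN_2632337 was lost without WT replicate 1 (adjusted p = 0.0886), KO replicate 1 (0.0538) or KO replicate 3 (0.0823), and with the choroid plexus marker level as a covariate (-0.22, adjusted p = 0.680). The summed choroid plexus signal did not overlap between KO and WT cerebellum, so the covariate fit cannot separate marker level from genotype. Granule cell markers were lower in KO cerebellum for 2 of 6 genes and higher for 1, against 1537 lower and 1884 higher of all 9449 genes. Their sums were 38094 to 42825 in KO arrays and 43290 to 54215 in WT arrays, with each of the 6 detected in both groups. The part of the granule cell markers in the *Ntrk3* result was not tested. In cortex the differences were between -0.07 and 0.07 and the groups of all 4 probes overlapped. ILMN_2632337 read 8.62, 8.70, 9.03 and 9.09 in KO cortex and 8.94, 8.53, 8.99 and 8.72 in WT cortex. The KO effect on this probe in hippocampus minus that in cortex was -0.52 (95% interval -0.84 to -0.20, adjusted p = 0.0536 in limma), just short of the threshold. It passed with neqc, quantile normalization, a stricter detection filter or the mouse as a fixed block (adjusted p = 0.0279 to 0.0445), and without WT mouse 3 (0.0442) or KO mouse 1 (0.0279). Because these are dissected tissues, fewer cells of a type and less RNA in each cell cannot be told apart.

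The choroid plexus markers given above also differed between KO and WT hippocampus. With their mean level as a covariate the hippocampal differences were -0.52 for ILMN_2632337, -0.32 for ILMN_2599036 and -0.34 for ILMN_2675199, and none passed (adjusted p = 0.125, 0.290 and 0.181 by limma). Over all probes in hippocampus, calls fell from 947 higher and 678 lower to 11 and 12 with this covariate. The part of the markers in the *Ntrk3* result was not tested. With an unmoderated test in place of limma's moderated test, the adjusted p of the 3 probes was 0.0884 to 0.0976.

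**Figure D2:**
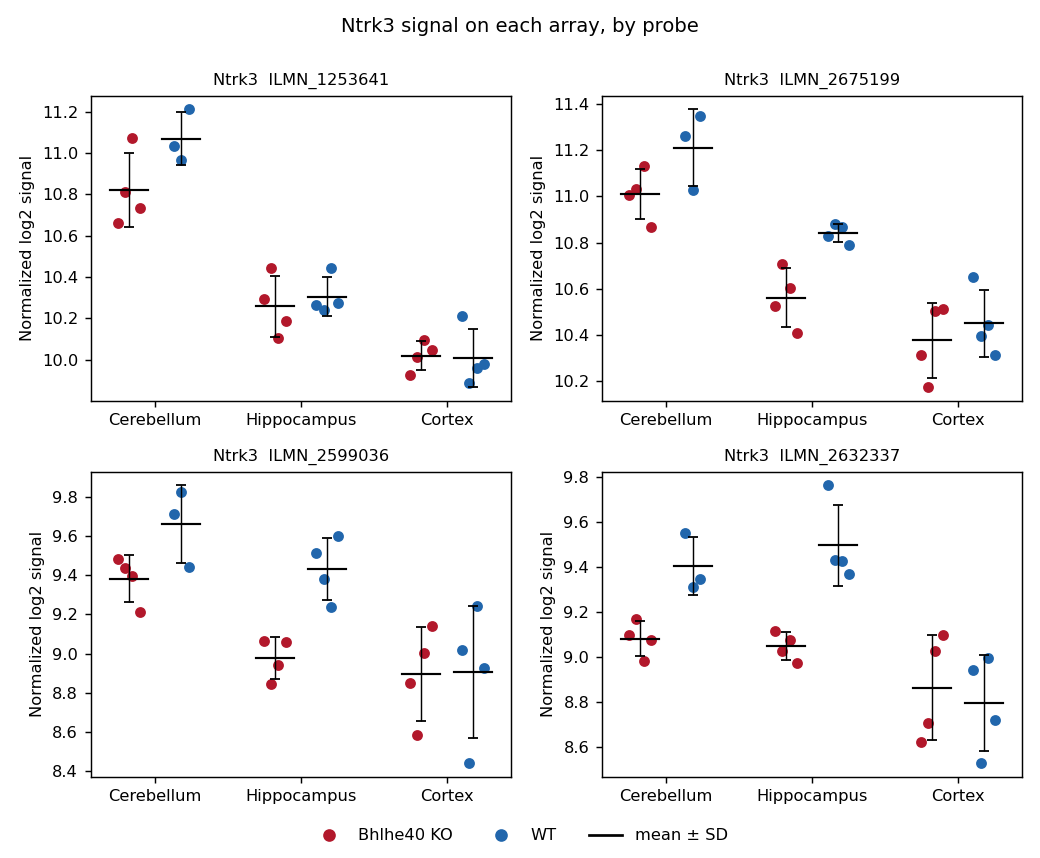
Normalized log2 signal of the 4 *Ntrk3* probes on every array (points), with the mean and SD of each group (bars), KO in red and WT in blue for each tissue. In hippocampus the KO and WT points separate on 3 probes and mix on ILMN_1253641, and each probe has its own scale, so that levels cannot be compared between panels.

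*Ngfr*, the p75 receptor, was measured by 1 probe. It read 8.53, 8.59, 8.76 and 8.39 in KO cerebellum and 8.31, 8.19 and 8.14 in WT cerebellum. All KO arrays lay above all WT arrays, by 0.35 on the log2 scale or 1.28-fold (SE 0.11, adjusted p = 0.0128 by limma), in a tissue where, as given above, 18.5% of all probes were called higher. Without WT replicate 3 or KO replicate 3 the adjusted p was 0.0541 or 0.0511. The call was also lost with the unmoderated test, and the exact permutation p was 0.0571. Under the other settings with all arrays kept, the difference ran from 0.24 to 0.47. In hippocampus the probe read 7.95, 7.76, 7.94 and 7.88 in KO arrays and 7.79, 7.66, 7.68 and 7.63 in WT arrays. The groups overlapped only through KO replicate 2 and WT replicate 1, and the difference of 0.19 (95% interval 0.04 to 0.34) did not pass (adjusted p = 0.0863 by limma). KO cortex read 7.74, 7.83, 7.71 and 7.71 and WT cortex 7.72, 7.87, 7.68 and 7.69, a difference of 0.01 (95% interval -0.13 to 0.15).

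The KO effect on *Ngfr* differed between cortex and cerebellum by -0.35 (95% interval -0.57 to -0.12, adjusted p = 0.0177 in limma over all arrays). It was the only one of the 14 tested probes called in any of the 3 comparisons of KO effects between tissues. In that comparison 30.7% of all probes were called, against 4.27% for hippocampus minus cortex and 1.31% for hippocampus minus cerebellum. With the choroid plexus marker level as a covariate the cerebellar *Ngfr* difference was 0.24 (adjusted p = 0.628). As for *Ntrk3*, that fit cannot separate marker level from genotype in cerebellum. Over all probes there, calls fell from 2550 higher and 2117 lower to 413 and 57 with the covariate. Markers of microglia were also higher in KO cerebellum, for 3 of 5 genes, with sums of 2277 to 2808 in KO arrays and 1759 to 2237 in WT arrays and each detected in both groups. Meningeal fibroblast markers were higher for 2 of 5 genes, with sums of 4068 to 5176 in KO arrays and 3268 to 4118 in WT arrays, where 1 of the 5 was undetected throughout. Astrocyte markers were higher for 2 of 7, although their sum was 38640 to 45086 in KO arrays and 41725 to 51365 in WT arrays. For comparison, 1884 of all 9449 genes were called higher in KO cerebellum. The part of these markers in the *Ngfr* result was not tested.

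*Bdnf*, the ligand of TrkB, did not pass the test in any tissue. ILMN_3105417, designed against NM_001048141, read 10.47, 10.37, 10.51 and 10.25 in KO hippocampus, against 10.54, 10.45, 10.43 and 10.23 in WT hippocampus. The groups lay on top of each other, with a difference of -0.01 and a 95% interval of -0.19 to 0.17. KO cortex read 9.84, 9.51, 10.15 and 9.57 and WT cortex 10.19, 10.20, 9.95 and 10.00. Of the KO arrays 3 lay below all WT arrays and replicate 3 lay among them. The difference of -0.32 had a 95% interval of -0.57 to -0.06 and an adjusted p of 0.429 by limma, and with each array left out in turn it ranged between -0.45 and -0.23 without passing. In cerebellum the KO arrays were spread widely, at 10.56, 10.42, 10.04 and 9.84, around WT arrays at 10.28, 10.33 and 10.11 (difference -0.03, 95% interval -0.30 to 0.25). Both probes of NM_007540 were near background, at 7.19 to 8.07 over all arrays. Their differences were between -0.08 and 0.03 in the tissues where they were tested, with 95% intervals inside -0.23 to 0.19. ILMN_1214228 was detected on none of the 7 cerebellar arrays and was not tested there.

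*Ntrk2*, encoding the BDNF receptor TrkB, showed no difference past the threshold on any of its 3 probes in any tissue. The differences ran from -0.05 to 0.14 and the KO and WT groups overlapped in every case. The largest was that of ILMN_3061460 in cerebellum, at 9.54, 9.81, 9.46 and 9.67 in KO arrays and 9.57, 9.61 and 9.26 in WT arrays (0.14, 95% interval -0.10 to 0.38, adjusted p = 0.378 by limma). In cortex ILMN_3138904 read 12.32, 12.33, 12.55 and 12.59 in KO arrays and 12.27, 12.48, 12.29 and 12.22 in WT arrays. The KO arrays tended to the upper end, but the difference of 0.14 (95% interval -0.06 to 0.33) did not pass.

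*Sort1*, encoding sortilin, also had no probe past the threshold. All 4 of its probes were designed against NM_019972. In hippocampus ILMN_1219717 read 13.32, 13.35, 13.31 and 13.25 in KO arrays and 13.36, 13.36, 13.63 and 13.60 in WT arrays. The groups did not overlap, yet the gap between the highest KO and the lowest WT array was small, and the difference of -0.18 did not pass (95% interval -0.36 to 0.00, adjusted p = 0.182 by limma). ILMN_3005873 differed by -0.10 with overlapping groups, and ILMN_1232295 and ILMN_2685772 by 0.10 and 0.15. In cerebellum ILMN_1232295 read 8.28, 8.22, 8.21 and 8.23 in KO arrays and 8.36, 8.59 and 8.34 in WT arrays without overlap (difference -0.20, adjusted p = 0.122 by limma). After quantile normalization or neqc background correction this probe passed (adjusted p = 0.0333 and 0.0383).

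More probes differed between tissues than between genotypes. In WT mice 9 of 15 probes differed between cerebellum and hippocampus, 3 of them higher and 6 lower in cerebellum, against 52.5% of all probes called (26.4% higher and 26.1% lower). Between cerebellum and cortex 12 of 15 differed, 5 higher and 7 lower in cerebellum (50.3% of all probes, 26.2% higher and 24.1% lower), and between hippocampus and cortex 6 of 15, 4 higher and 2 lower in hippocampus (23.7%, with 12.5% higher and 11.2% lower). In KO mice the counts were 4 higher and 6 lower for cerebellum minus hippocampus (55.9% of all probes called, 29.2% higher and 26.7% lower), 5 higher and 7 lower for cerebellum minus cortex (63%, with 34.6% higher and 28.4% lower), and 3 higher and 2 lower for hippocampus minus cortex (44.2%, with 24.8% higher and 19.4% lower). In both genotypes the probes counted as lower in cerebellum include *Bdnf* ILMN_1214228, which was detected on no cerebellar array and gives only a bound. These comparisons share their arrays pairwise and are not independent of each other. All 23 arrays entered one limma fit, in which the mouse of origin was treated as random.

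*Sort1* was lower in cerebellum on 2 of its 4 probes. ILMN_3005873 read 12.36, 12.48, 12.60 and 12.58 in KO cerebellum, 13.48, 13.80, 13.56 and 13.49 in KO hippocampus and 13.89, 13.83, 13.46 and 13.64 in KO cortex. In WT mice it read 12.57, 12.75 and 12.60 in cerebellum, 13.57, 13.57, 13.85 and 13.75 in hippocampus and 13.79, 13.53, 13.60 and 13.77 in cortex. Every cerebellar array lay below every array of the other tissues, and WT cerebellum was lower than WT hippocampus by -1.04 (adjusted p = 9.27e-10 by limma) and lower than WT cortex by -1.03 (adjusted p = 1.1e-09). On this probe WT hippocampus and WT cortex did not differ beyond their spread (0.01, 95% interval -0.19 to 0.21). ILMN_1219717 gave the same picture, with -1.14 and -1.07 in WT mice and -1.07 and -1.25 in KO mice. The other 2 probes of the same transcript did not pass between WT cerebellum and WT hippocampus, where ILMN_1232295 differed by 0.19 (adjusted p = 0.112 by limma) and ILMN_2685772 by 0.02 (0.875). ILMN_2685772 was lower in WT hippocampus than in WT cortex, by -0.27 (adjusted p = 0.0355), and lower in WT cerebellum than in WT cortex, by -0.25 (0.0431), and ILMN_1232295 was lower in KO cerebellum than in KO cortex, by -0.26 (0.0163).

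*Ntrk2* was lowest in cerebellum on all 3 probes and in both genotypes. ILMN_3061460 averaged 9.48 ± 0.19 in WT cerebellum (SD, n = 3), 10.40 ± 0.19 in WT hippocampus and 10.73 ± 0.16 in WT cortex (SD, n = 4 each). All 3 steps passed in WT mice, with cerebellum minus hippocampus at -0.92, cerebellum minus cortex at -1.26 and hippocampus minus cortex at -0.33 (adjusted p = 0.017 by limma). For ILMN_3138904 the cerebellum was lower by -0.29 than hippocampus and by -0.35 than cortex in WT mice, and for ILMN_2705460 by -0.59 and -0.46. Hippocampus and cortex did not differ on these 2 probes in WT mice beyond their spread (differences of -0.05 and 0.13). In KO mice both passed, in opposite directions, with ILMN_3138904 lower in hippocampus by -0.21 (adjusted p = 0.0365 by limma) and ILMN_2705460 higher by 0.26 (0.0370). The KO effect in hippocampus minus that in cortex was -0.15 (adjusted p = 0.409 by limma) and 0.13 (0.603) for these probes. The genotypes were therefore not shown to differ in this step.

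*Ntrk3* ran the other way, highest in cerebellum and lowest in cortex on most probes. In WT mice ILMN_1253641 averaged 11.07 ± 0.13 in cerebellum (SD, n = 3), 10.30 ± 0.09 in hippocampus and 10.01 ± 0.14 in cortex (SD, n = 4 each). All 4 probes were higher in WT cerebellum than in WT cortex, by 0.61 to 1.06, and higher in WT hippocampus than in WT cortex, by 0.30 to 0.70 (adjusted p of at most 0.0188 by limma). For cerebellum minus hippocampus in WT mice only the NM_008746 probes passed, at 0.76 and 0.37, while ILMN_2599036 and ILMN_2632337 differed by 0.23 and -0.09. In KO mice hippocampus minus cortex was 0.24 for ILMN_1253641 (adjusted p = 0.0375 by limma) and 0.08 to 0.18 for the other 3 probes, none of which passed. The calls of that comparison in WT and KO mice are given side by side, and the difference between the genotypes is the interaction tested above, which did not pass for any *Ntrk3* probe.

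*Ngfr* was highest in cerebellum. Cerebellum exceeded hippocampus by 0.69 in KO mice and 0.52 in WT mice, and cortex by 0.82 in KO mice and 0.47 in WT mice (all adjusted p of at most 1.08e-05 by limma). All cerebellar arrays lay above all other arrays, and hippocampus and cortex did not differ in either genotype (0.13 in KO mice and -0.05 in WT mice).

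*Bdnf* passed between hippocampus and cortex in KO mice and not in WT mice. On ILMN_3105417 KO hippocampus averaged 10.40 ± 0.12 and KO cortex 9.77 ± 0.29 (SD, n = 4 each), a difference of 0.63 (adjusted p = 0.000165 by limma). WT hippocampus averaged 10.41 ± 0.13 and WT cortex 10.09 ± 0.13 (SD, n = 4 each), a difference of 0.33 with adjusted p = 0.0573. The test of the 2 differences against each other gave 0.31 (95% interval -0.06 to 0.67, adjusted p = 0.288), so that they were not shown to differ. ILMN_3105417 was higher in KO cerebellum than in KO cortex, by 0.45 (adjusted p = 0.00274 by limma). In WT mice that difference was 0.16 and did not pass (0.359). The KO effect in cortex minus that in cerebellum was -0.29 (95% interval -0.67 to 0.09, adjusted p = 0.244 by limma), so the genotypes were not shown to differ here either. Cerebellum minus hippocampus did not pass on this probe, at -0.19 in KO mice and -0.17 in WT mice (0.215 and 0.303). ILMN_1246842 passed in none of these comparisons. ILMN_1214228 read lower in cerebellum than in both other tissues. It was not well above background there, with a measured mean of 7.26 in KO arrays and 7.31 in WT arrays. Taking the lowest detected signal of each array as the level in cerebellum, the probe was at least 1.13-fold higher in KO hippocampus and 1.23-fold higher in KO cortex, and at least 1.21-fold higher in WT hippocampus and 1.27-fold higher in WT cortex. Its fitted differences passed in all 4 cases, but the probe entered these tests only through its detection in hippocampus and cortex. No p is given for them, because signal below detection leaves only these bounds.

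**Figure D3:**
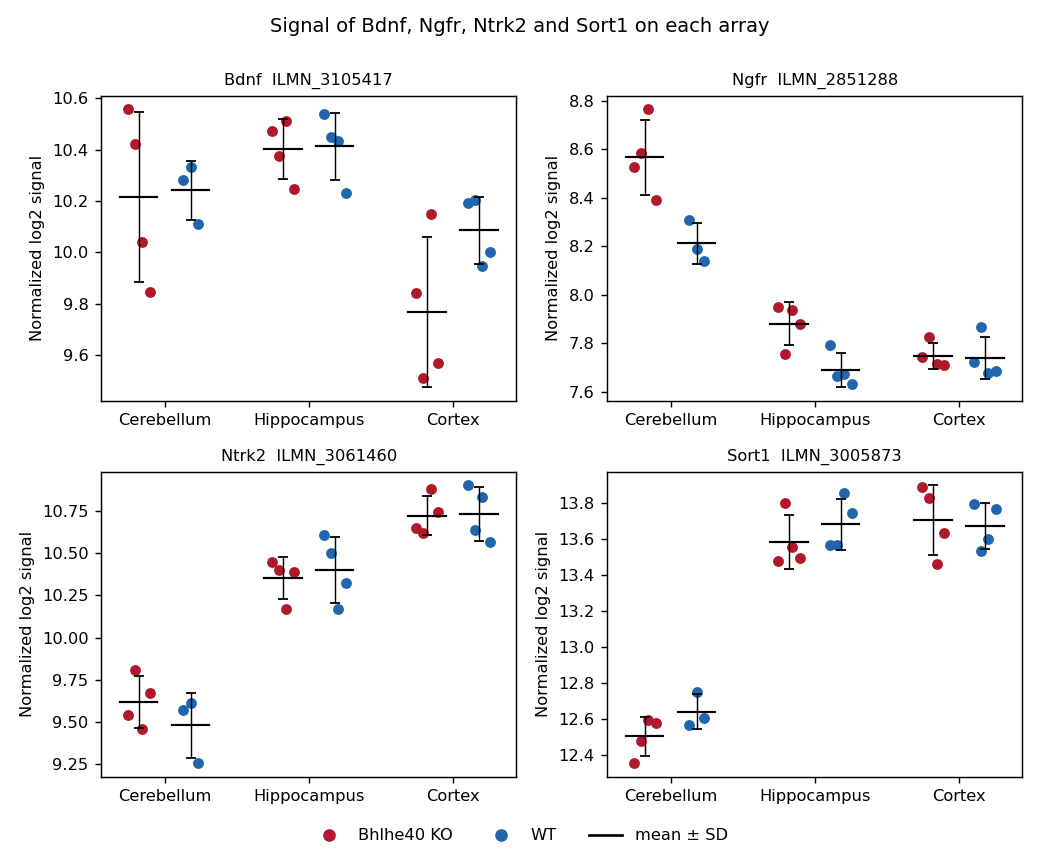
Normalized log2 signal of 1 probe each of *Bdnf*, *Ngfr*, *Ntrk2* and *Sort1* on every array (points), with the mean and SD of each group (bars), KO in red and WT in blue. *Ngfr* is highest in cerebellum, *Ntrk2* and *Sort1* are lowest there, and KO and WT separate only for *Ngfr* in cerebellum, while levels cannot be compared between panels.

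Probes of the same gene were compared pairwise in their KO effect. Of 52 pairs, 3 reached an exact permutation p of 0.0286 and none remained after adjustment, where the smallest adjusted p was 0.495. Besides the *Ntrk3* pair above, these were *Sort1* ILMN_1219717 against ILMN_1232295 in hippocampus (-0.28) and *Sort1* ILMN_1232295 against ILMN_2685772 in cortex (0.25). With 4 arrays a group at most, no single pair could reach a lower p. A few pairs at that p cannot pass an adjustment over 52, so the adjusted values do not decide whether these probes differ.

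The genes whose signal was most alike across the 23 arrays were taken by Pearson's r among 10335 genes, through the probe of each member with the highest mean signal. The highest was *Pdk2* for *Ngfr* (r = 0.978), followed by *Rasgrp1* for *Sort1* (0.977), *Map3k3* for *Ntrk3* (0.939), *Clip2* for *Ntrk2* (0.934) and *Tmem70* for *Bdnf* (0.816). Next came *Il17re* and *Slc38a2* for *Ngfr*, *Pip4k2c* and *Mfge8* for *Sort1*, *Unc5b* and *Sfpq* for *Ntrk3*, *Ptprf* and *Cdh13* for *Ntrk2*, and *Foxo1* and *Stk4* for *Bdnf*. The arrays share tissues and mice, so they are not independent points and no p is given.

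The other genes of the pathway were taken from a list of 93, of which 71 had a probe by symbol. Of the 2 further ligand genes on it 1 had a probe, which was not detected in enough arrays to be tested. Each gene was counted through its tested probe with the highest mean signal in the tissue. In KO hippocampus 3 genes were higher and 8 lower of 53 tested, against 706 higher and 433 lower of all 9834 genes. KO cerebellum had 8 higher and 15 lower of 52, against 1884 and 1537 of 9449, and KO cortex 0 of 54, against 11 and 9 of 9720. The median difference over the list was -0.04 in cerebellum, -0.05 in hippocampus and 0.03 in cortex, beside 0.01, 0.01 and 0.00 over all genes tested. The choroid plexus markers moved in the same 2 tissues, and their part in these counts was not tested.

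Among the receptors and co-receptors, 3 of 6 passed in cerebellum and 2 of 6 in hippocampus. *Sorl1*, a sorting receptor of the same family as sortilin, was lower in KO mice, by -0.37 in cerebellum (adjusted p = 0.0290 by limma) and -0.45 in hippocampus (0.010). *Sorcs2*, another member of that family, was higher, by 0.26 in cerebellum and 0.32 in hippocampus. *Lingo1*, a partner of p75 in the Nogo receptor complex, was higher in KO cerebellum by 0.57 and is counted among the p75 partners too. Among the genes for processing and secretion, *Furin*, a protease that cleaves proneurotrophins, was higher in KO mice by 0.53 in cerebellum and 0.30 in hippocampus. *Cadps2*, which primes dense-core vesicles for release, was lower by -0.59 and -0.26, and *Hap1* was higher in cerebellum by 0.48.

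Of the p75 partners, 3 were higher and 4 lower of 10 in cerebellum, and 1 was higher and 1 lower of 10 in hippocampus. *Bex3*, which binds the intracellular part of p75, was higher in KO mice by 0.52 in cerebellum and 0.28 in hippocampus, and *Prdm4*, a zinc finger protein that binds p75, was lower by -0.56 and -0.30. *Traf6*, an adaptor of p75 signalling, was lower in cerebellum by -0.54. The Trk adaptors had 1 higher and 4 lower of 13 in cerebellum, where *Gab1* (-0.64), *Crkl* (-0.58), *Nedd4l* (-0.46) and *Crk* (-0.42) were lower, and 1 lower of 14 in hippocampus, *Crk* (-0.24). Of the genes of the Ras, MAPK, PI3K and Akt pathways 3 of 12 were lower in cerebellum, namely *Rap1b* (-0.40), *Pik3r1* (-0.29) and *Rps6ka3* (-0.26). In hippocampus 4 of 12 were lower, namely *Gsk3b* (-0.41), *Map2k5* (-0.28), *Pdpk1* (-0.27) and *Rap1b* (-0.24). None was higher in either tissue through the probe counted for each gene. Over all 16 tested probes of this list in cerebellum, 1 was higher and 5 were lower. The regulators of *Bdnf* transcription other than *Bhlhe40* were also read through 1 counted probe for each gene. *Crtc1*, a coactivator of CREB, was higher by 0.37 and *Creb1* (-0.36) and *Mef2a* (-0.35) were lower in KO cerebellum. None of these counted probes passed in hippocampus or cortex. With every tested probe of the list taken, *Bhlhe40* included, 2 of 18 were lower in hippocampus and 1 of 18 in cortex. In cerebellum 3 of 17 were higher and 3 were lower.

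**Figure D4:**
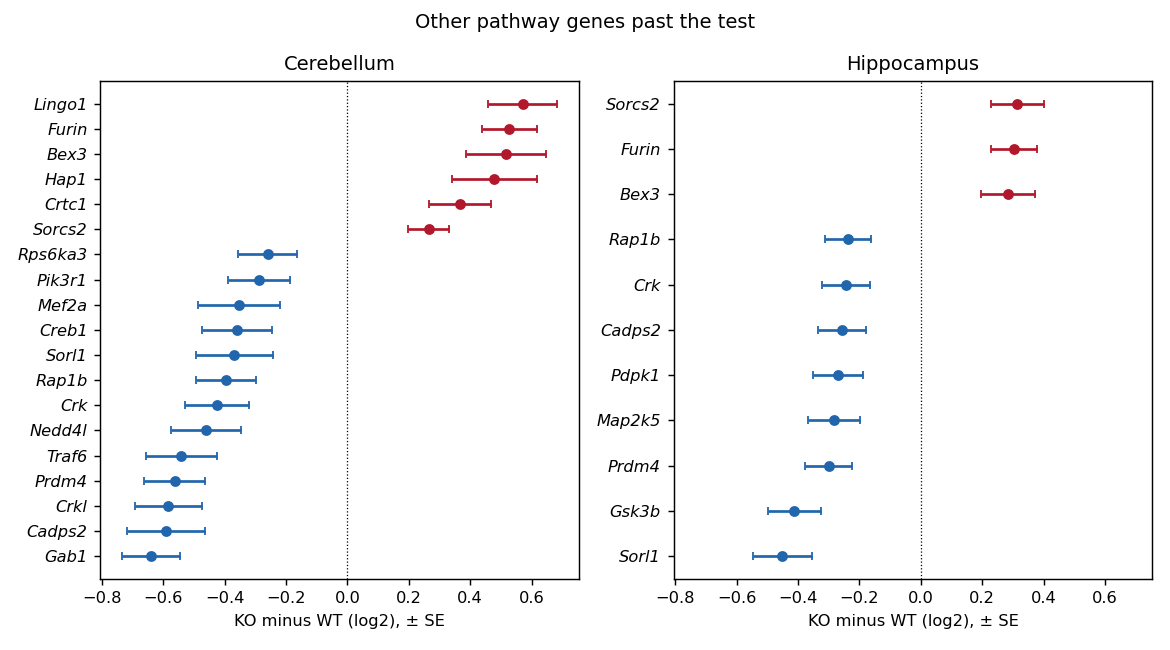
KO minus WT difference in normalized log2 signal (points) with its SE (bars) of the pathway genes named in the text, in cerebellum and hippocampus. These are up to 4 genes of each list among those past an adjusted p of 0.05, higher in KO mice in red and lower in blue, and cortex is left out because no gene passed there.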

How the data were processed

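Total RNA was measured on 23 arrays, grouped by the tissue and genotype of the labels, and animal codes gave the tissues of each mouse. The authors extracted average bead intensities and detection p-values in GenomeStudio 2011.1 and deposited both, without background subtraction or normalization, together with a Z score of the log signal of each array. Between 50.9% and 55.5% of probes were detected per array at a p under 0.05, and median intensities were 164.4 to 267.9. The number of arrays limits precision. The authors had removed 1 WT cerebellum sample, and nothing in the labels ties a KO mouse to a WT mouse.

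Calculations used R 4.3.3, limma 3.58.1 and statmod 1.5.0. Following the study's Z normalization, the log2 intensities of each array were centred and divided by their SD, then rescaled to the average SD of 1.57 and the grand mean of 8.43. This kept the deposited Z scores to within 9.96e-05. Probes with a detection p below 0.05 on 3 or more arrays of a tissue were tested, in each tissue alone (lmFit, eBayes with a trend), and tissue and interaction contrasts were fitted over all 23 arrays with duplicateCorrelation for the mouse (correlation 0.0048), where probes were kept in the tissues compared. Adjusted p were by Benjamini and Hochberg. Same-numbered KO and WT arrays did not deviate together, with correlations of -0.34 to 0.28. All probes of the 6 genes are named, with pathway genes past the threshold up to 4 for each list and tissue by size, and the 3 genes most alike each member. Members and lists were chosen with earlier results of these data known. Probe symbols came from the platform annotation, and probe positions in transcripts were not used here. In simulated data with the spread of the real arrays, the hippocampal comparison recovered 84% of probes changed by 0.5 on the log2 scale (14369 probes), the cortical 79% (14163) and the cerebellar 67% (13800), with noise drawn independently for each probe. Alternatives were quantile normalization, neqc (offset 16), Z scores as deposited, other detection filters, 1 probe for each gene, blocks, a joint fit, a choroid plexus covariate, unmoderated and exact tests, and each array or mouse left out.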

Additional observations from a re-analysis of the deposited data

Results flagged for a closer look

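In 4 of 75 sets of 4 arrays, 1 array stood apart from the other 3 by more than Dixon's 95% critical value, where chance puts about 1 in 20 sets past it. *Sort1* ILMN_1219717 read 12.35 in KO cerebellum replicate 4, with the nearest array at 12.20, and ILMN_2685772 read 8.685 in the same array, with the nearest at 8.392. *Ntrk3* ILMN_2632337 read 9.762 in WT hippocampus replicate 1, with the nearest at 9.429, and without that array the KO difference still passed. *Ntrk3* ILMN_1253641 read 10.44 in WT hippocampus replicate 3, with the nearest at 10.27.

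The KO effect on *Ngfr* differed between cortex and cerebellum by -0.346 (adjusted p = 0.0177 in limma). The adjusted p was 0.0554 without WT mouse 2, 0.0606 without WT mouse 4, 0.0751 without KO mouse 3, 0.168 with neqc and 0.0568 with quantile normalization.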

How the results depend on the processing

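Among 2874 values of single probes under other settings, 2771 stayed on their side of the threshold, 69 fell short of it, 34 came past it and 0 reversed a called direction, while 100 signs changed among differences that never passed. Some settings could hardly move a call, such as the deposited Z scores, or no mouse block at a mouse correlation of 0.0048. The number that stayed is therefore no measure of robustness. In hippocampus the count of 3, all *Ntrk3* probes, became 1 with 1 probe for each gene, 0 with the choroid plexus covariate and 0 with the unmoderated test, and was 2 to 4 with an array left out, where the fourth was *Ngfr* without KO replicate 2. In cerebellum the count of 2 became 4 with neqc and 4 with quantile normalization, through *Ntrk3* ILMN_2599036 and *Sort1* ILMN_1232295, 1 with 1 probe for each gene, 0 with the covariate, 1 with the unmoderated test and 1 to 3 with an array left out. In cortex it stayed 0 under every setting run. For KO hippocampus minus KO cortex the count of 5 became 2 with neqc, 3 with quantile normalization, 3 without a detection filter and 3 to 5 with a mouse left out, and for WT hippocampus minus WT cortex the 6 became 3 to 7. The count of 0 for the KO effect in hippocampus minus cortex became 1, *Ntrk3* ILMN_2632337, with neqc, quantile normalization, the detection p under 0.01 or the mouse as a fixed block, and 0 to 1 with a mouse left out. For cortex minus cerebellum the 1 became 0 at a detection p under 0.01, where *Ngfr* was not tested, and 0 to 2 with a mouse left out. With neqc and quantile normalization it stayed 1 through another gene, *Ntrk3* ILMN_2632337 (adjusted p = 0.0254 and 0.0206), in place of *Ngfr*, and without KO mouse 3 through *Bdnf* ILMN_3105417. The causes of these shifts were not tested. With the replicate number as a block the counts were 3, 0 and 2 in hippocampus, cortex and cerebellum, and 4 for KO hippocampus minus KO cortex. Over all probes, the calls in hippocampus were 947 higher and 678 lower, but 11 and 12 with the covariate, 7 and 13 with the unmoderated test, and 324 and 254 without WT replicate 4. In cerebellum 2550 and 2117 became 413 and 57 with the covariate and 1378 and 1119 unmoderated. Signals near background, such as both *Bdnf* NM_007540 probes, limit what a difference can show. The probe pairs were also compared, as settings chosen after seeing the data, with neqc, quantile normalization and the deposited Z scores. Under the same limit on the exact p, 0 passed.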
